A study of Homo sapiens with 20 samples.

Results

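Small nucleolar RNAs (snoRNAs) and small Cajal body RNAs (scaRNAs) were examined in total RNA labelled SW1990, a cell line established from a human pancreatic cancer, in a series described as a mouse model of that cancer. The 20 libraries formed 4 groups of 5, each given another traditional Chinese medicine treatment: clearing Heat and removing Dampness (heat-clearing below), strengthening spleen and regulating qi-flowing (spleen-strengthening), eliminating heat by nourishing yin (yin-nourishing), and activating blood and removing stasis (blood-activating). No untreated group was among the samples, so each treatment could be set only against the others. The labels give neither dose, time nor animal, and nothing in them says that replicates came from separate mice, so p-values measure only the spread between these samples, which may be technical. Members were chosen by measured counts as well as by name: they were the rows of the count table whose symbol starts with SNORA, SNORD or SCARNA and whose counts, summed over the 20 libraries, reached 1000. That gave 35 members of 540 rows with such symbols and of 60656 rows in all: 16 of 207 SNORA rows, 8 of 308 SNORD rows and 11 of 25 SCARNA rows. They held 97.2% of the counts of the 540 rows.

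SnoRNAs work in the nucleolus as guides that pair with ribosomal RNA. The SNORD genes encode C/D box snoRNAs, which direct 2′-O-methylation with the methyltransferase fibrillarin, and the SNORA genes encode H/ACA box snoRNAs, which direct pseudouridylation with dyskerin. ScaRNAs carry C/D, H/ACA or both kinds of domain and guide the same modifications on the spliceosomal small nuclear RNAs in Cajal bodies. Most human members of these families are cut from introns of other genes, whereas U3 (the SNORD3 genes) and SCARNA2 are transcribed from their own promoters. U3 and SNORA73 act in the cutting of the ribosomal RNA precursor rather than in its modification.

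The sequences of the members on which the results turn are shown so that the guide types can be seen. For the C/D box RNAs U3 (SNORD3A) and SNORD17 the capitals mark the C box core TGATGA and the D box CTGA near the 3′ end.

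SNORD3A: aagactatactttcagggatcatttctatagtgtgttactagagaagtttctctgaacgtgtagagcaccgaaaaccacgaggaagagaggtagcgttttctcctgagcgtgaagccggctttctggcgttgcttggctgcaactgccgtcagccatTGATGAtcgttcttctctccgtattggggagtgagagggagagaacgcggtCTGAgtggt
SNORD17: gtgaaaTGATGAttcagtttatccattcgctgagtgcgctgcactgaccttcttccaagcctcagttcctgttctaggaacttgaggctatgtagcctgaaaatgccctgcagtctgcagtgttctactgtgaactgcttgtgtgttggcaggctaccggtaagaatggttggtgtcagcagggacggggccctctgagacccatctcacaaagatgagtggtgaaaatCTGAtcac

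Among the scaRNAs, SCARNA5 and SCARNA10 guide modification of U5 small nuclear RNA, SCARNA7 that of U1, and SCARNA21 that of U12 of the minor spliceosome. In SCARNA5 the capitals mark each TGAG, the letters of the Cajal body box that holds H/ACA scaRNAs in that body. The TGAG nearest its 3′ end overlaps a CTGA, the letters of the D box. SCARNA21, a plain H/ACA RNA and the one scaRNA member without TGAG, has its ACA box in capitals.

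SCARNA5: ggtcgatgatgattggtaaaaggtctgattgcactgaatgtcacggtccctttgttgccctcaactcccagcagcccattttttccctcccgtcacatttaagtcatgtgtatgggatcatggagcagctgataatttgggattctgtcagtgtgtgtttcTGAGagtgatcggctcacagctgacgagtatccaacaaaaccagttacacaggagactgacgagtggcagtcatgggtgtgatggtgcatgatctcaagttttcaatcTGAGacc
SCARNA21: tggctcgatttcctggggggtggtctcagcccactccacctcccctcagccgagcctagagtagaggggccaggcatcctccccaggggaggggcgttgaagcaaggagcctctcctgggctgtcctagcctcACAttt

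For the H/ACA snoRNAs the capitals mark the ACA box, where it stood 3 bases before the 3′ end. SNORA22 and SNORA22C are shown together because they are near-identical copies, with the substitutions A87G and T104C from SNORA22 to SNORA22C, counted from 1 at the 5′ end.

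SNORA22: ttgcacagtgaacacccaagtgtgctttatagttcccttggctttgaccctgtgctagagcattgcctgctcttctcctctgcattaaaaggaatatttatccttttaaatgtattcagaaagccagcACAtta
SNORA22C: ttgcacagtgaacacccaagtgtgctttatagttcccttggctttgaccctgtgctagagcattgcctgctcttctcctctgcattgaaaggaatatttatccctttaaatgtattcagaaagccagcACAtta
SNORA23: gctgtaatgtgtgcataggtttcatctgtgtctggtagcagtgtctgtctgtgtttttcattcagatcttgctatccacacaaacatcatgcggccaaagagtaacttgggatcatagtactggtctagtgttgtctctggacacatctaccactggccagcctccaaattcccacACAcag

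All are the shortest annotated transcript of each gene in GENCODE release 29 on GRCh38, read from 5′ to 3′ on the RNA's own strand and written as DNA. Only that strand was searched for motifs. TGATGA was found in 212 of 275 annotated SNORD genes and in all 7 SNORD members with a sequence, and CTGA starting in the last 12 bases in 243 of 275 and in 7 of 7. The ACA box 3 bases before the end was found in 107 of 142 SNORA genes (75.4%) and in 8 of 16 SNORA members, and TGAG in 17 of 24 SCARNA genes and 10 of 11 SCARNA members. TGAG was also found in 239 of 275 SNORD and 62 of 142 SNORA genes. Among members it was in 7 of 7 SNORD and 8 of 16 SNORA, so these letters do not set scaRNAs apart. A match describes letters and was not tested as a site.

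Of the 35 members, 34 were matched to the annotation by gene name, and SNORD39 is given by its name only. SNORD3A lies at chr17:19188016-19188714 on the plus strand, a gene span longer than the mature U3 of 217 bases, and SNORD17 at chr20:17962710-17962946 (minus) inside SNX5. SCARNA5 lies at chr2:233275727-233276002 (plus) and SCARNA6 at chr2:233288676-233288940 (plus), both inside ATG16L1, SCARNA10 at chr12:6510222-6510551 (plus) inside NCAPD2, SCARNA7 at chr3:160514907-160515236 (minus) inside KPNA4, and SCARNA21 at chr17:7906122-7906260 (plus) inside CHD3. SNORA22 lies at chr7:65755526-65755659 (plus) inside the pseudogene CCT6P1, SNORA22C at chr7:65065999-65066132 (plus) inside CCT6P3, and SNORA23 at chr11:9428773-9428954 (plus) inside IPO7. In all, 30 members lay within a gene on the same strand, 20 of them within a protein-coding gene, and 4 U3 genes lay in none. The mature members were long for their class in the C/D and Cajal body groups: the median length was 217 bases for 7 SNORD members against 82 for 275 annotated SNORD genes, and 275 against 141.5 for SCARNA, while SNORA members stood at 135 against 134. The SNORD median is the length of U3, since all but SNORD17 (237 bases) and SNORD15B (146) of those 7 are U3 copies. The table was made from RNA-seq libraries of total RNA and not from small RNA libraries. Of the 505 rows under the threshold, 414 had fewer than 100 counts in all, and 27 had exactly 1 count in every library, among them SNORD118 (U8, for the large ribosomal subunit), SNORD14C and SNORD14D. Just inside the threshold were SCARNA4 with 1062 counts, SNORA74A with 1082 and SNORA71B with 1253, and just outside it SNORD12C with 992, SNORD97 with 946 and SNORA73A with 857.

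Depth was 81.7 to 135 M counts per library, and levels are CPM, the counts per M (mega) counts of the library. RN7SK made up 5.25% to 7.38% of all counts in 5 libraries and 1.57% to 3.02% in the remaining 15. RN7SK encodes the abundant 7SK small nuclear RNA that holds the elongation factor P-TEFb inactive. These RN7SK-high libraries, a grouping taken from the data and not from the labels, comprised replicates 01 and 02 of heat-clearing with replicates 01, 08 and 09 of blood-activating. Markers of the ductal epithelium to which SW1990 belongs were present in every library, with a summed level of 7 genes from 1895 to 3292 CPM. The 8 acinar enzyme genes summed to between 0.946 and 752 CPM, the 4 fibroblast genes to 15.8 to 64.9 CPM, the 3 endothelial genes to 7.23 to 22.2 CPM, the 4 leukocyte genes to 50.03 to 87.0 CPM and the 3 red cell genes to 0 to 1.47 CPM. Most of the leukocyte sum was CD68 (37.7 to 78.6 CPM), with PTPRC at most 0.766 and CD3E at most 1.06 CPM. Most of the fibroblast sum was COL1A1 (13.3 to 56.4 CPM), with DCN at most 1.92 CPM. These sums therefore do not by themselves show those cell types. In bulk RNA, fewer cells of a type and less RNA per cell cannot be told apart.

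Measured per length, U3 from SNORD3A was the highest member, with a mean over 20 libraries of 937 CPM per kb. SCARNA5 followed with 507 CPM per kb, and the U17 snoRNA SNORA73B with 156 led the H/ACA class. In the Cajal body class SCARNA10 (133 CPM per kb), SCARNA7 (128), SCARNA13 (113, a guide for U2 and U5) and SCARNA6 (93.0, a guide for U5) came next. Among the other H/ACA snoRNAs SNORA22 reached 67.2 CPM per kb, SNORA53 60.4, SNORA23 35.1 and SNORA22C 32.7. SNORD17 stood at 101 CPM per kb, and the other U3 copies were low, with SNORD3B-2 at 25.7, SNORD3B-1 at 23.4 and SNORD3C at 4.99 CPM per kb. Near-identical copies share reads, so the split among them is uncertain: SNORD3A differs from SNORD3B-1 and SNORD3B-2 by A78C, from SNORD3C by G108A and from SNORD3D by A4G, C53T and A78C. SNORD3A took 93.0% to 95.5% of the U3 counts in the 15 other libraries and 89.8% to 92.3% in the RN7SK-high ones.

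Between the 4 treatments no member passed the edgeR test at an adjusted p of 0.05. The summed SNORD level, most of it U3, was on average lower in the treatments that held RN7SK-high libraries, and the summed SCARNA level higher. Blood-activating also held the highest SNORD sum of any library, 469 CPM. SNORD17 went the other way from U3. Its mean was 33.5 CPM in heat-clearing and 26.8 in blood-activating, against 16.0 in spleen-strengthening and 19.8 in yin-nourishing. Of the 35 members, 34 passed the filter on low counts and were tested, SCARNA2 being the exception. The edgeR quasi-likelihood test called 0 of 34 members over the 4 treatments, where it called 0% of 24790 rows, and 6 members (17.6%) had an unadjusted p under 0.05, as did 15.4% of all rows. In each of the 6 pairs it also called 0 members. The background was 0.00807% of rows for heat-clearing against spleen-strengthening and 0% for each of the other 5 pairs. Members with an unadjusted p under 0.05 numbered 5 for heat-clearing against spleen-strengthening (14.7%, against 11.5% of all rows) and 6 for heat-clearing against yin-nourishing (17.6% against 10.3%). They numbered 7 for spleen-strengthening against blood-activating (20.6% against 20.5%) and 8 for yin-nourishing against blood-activating (23.5% against 18.2%). They numbered 0 for heat-clearing against blood-activating, where 1.86% of rows had such a p, and 0 for spleen-strengthening against yin-nourishing, where 4.72% did. DESeq2 called 4 of 34 members over the 4 treatments (background 4.97%), 5 for spleen-strengthening against blood-activating (7.7%) and 5 for yin-nourishing against blood-activating (4.11%), and 0 for the other pairs. Limma voom with quality weights called 8 (8.77%), 9 (19.7%) and 12 (16.9%) in the same comparisons. The call therefore depended on the tool, and SCARNA10, SNORA22 and SNORA22C were called by both DESeq2 and limma in all of these comparisons and by edgeR in none.

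**Figure D1:**
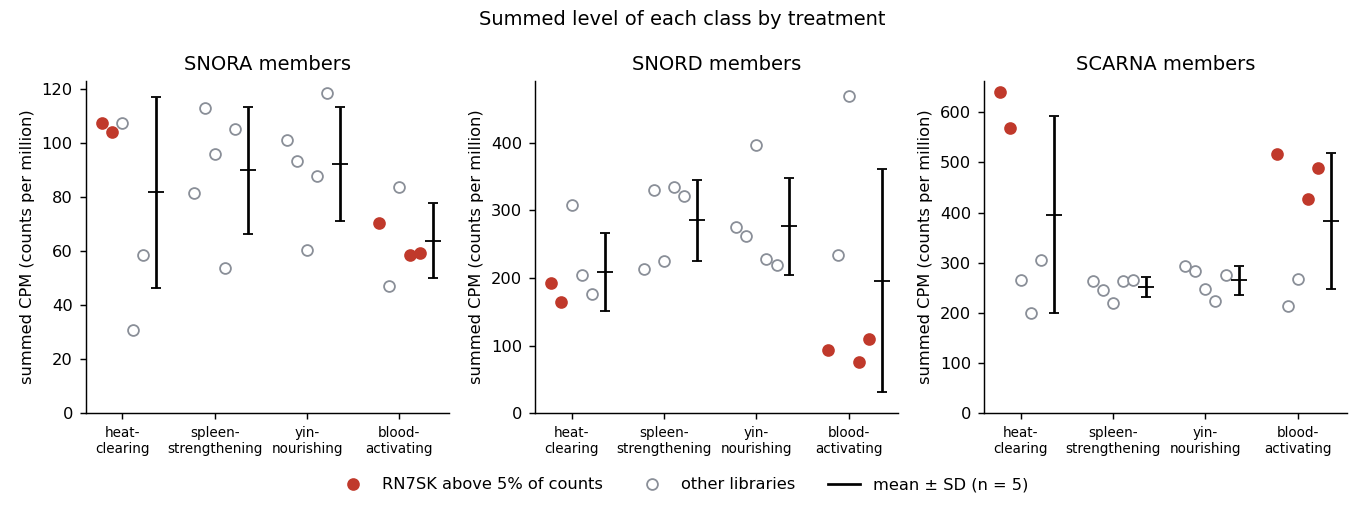
Summed CPM of the members of each class (vertical axes) in the 5 libraries of each treatment (horizontal axes). Filled points are libraries with RN7SK above 5% of counts, open points are the others, and bars give the mean ± SD. The filled points of the SCARNA class lie between 427 and 640 CPM, above all open points, which lie between 199 and 305 CPM.

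Summed over its members, the SCARNA class stood at 396 ± 196 CPM in heat-clearing, 252 ± 19.5 in spleen-strengthening, 265 ± 28.6 in yin-nourishing and 383 ± 135 in blood-activating (mean ± SD, n = 5 each). The SDs of the first and last of these were several times those of the middle ones, and the plot of class sums shows that within both treatments the RN7SK-high libraries were the high ones. The SNORD class, of which U3 is the larger part, stood at 209 ± 57.6, 285 ± 59.98, 276 ± 71.6 and 196 ± 165 CPM in the same order. The SNORA class stood at 81.7 ± 35.2, 89.8 ± 23.4, 92.2 ± 21.2 and 63.8 ± 13.9 CPM, with ranges that overlapped between all treatments.

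SCARNA10, a guide for U5, had the smallest p over the 4 treatments (adjusted p = 0.172, edgeR). Its level was 102, 91.4, 24.0, 26.5 and 33.3 CPM in heat-clearing and 98.4, 34.3, 37.7, 80.7 and 84.7 CPM in blood-activating. In spleen-strengthening it was 18.2, 26.0, 22.7, 33.7 and 22.8 CPM, and in yin-nourishing 34.3, 25.5, 36.7, 22.5 and 24.9 CPM. All 5 spleen-strengthening values lay below all 5 blood-activating ones, a log2 difference of -1.41 (SE 0.376, adjusted p = 0.0933 by edgeR), and without the RN7SK-high libraries the difference was -0.53 (adjusted p = 0.720). Heat-clearing against spleen-strengthening gave 1.08 for SCARNA10 (SE 0.373, adjusted p = 0.326), and 0.15 without those libraries.

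SCARNA21 had the largest fold among the members named for a treatment comparison. It was at 18.6, 21.4, 1.75, 0.737 and 1.39 CPM in heat-clearing, and at 11.6, 0.480, 0.675, 13.5 and 14.4 CPM in blood-activating. In spleen-strengthening it ranged from 0.589 to 1.93 CPM and in yin-nourishing from 0.493 to 1.31 CPM, so that the low libraries of the first 2 treatments lay among or near these values. Yin-nourishing against blood-activating gave a log2 difference of -3.26 (SE 0.999, adjusted p = 0.142, edgeR). Without the RN7SK-high libraries its sign turned, to 0.53, and with a term for them it was 0.32. Heat-clearing against yin-nourishing gave 3.30 (SE 1.0005, adjusted p = 0.456, edgeR) and 0.62 without those libraries, and heat-clearing against spleen-strengthening gave 2.73 (SE 0.974, adjusted p = 0.326) and 0.04.

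SNORA22C, an H/ACA snoRNA, was at 5.67, 8.02, 7.63, 3.71 and 7.38 CPM in spleen-strengthening and at 1.22, 2.93, 4.03, 0.932 and 1.06 CPM in blood-activating. These groups overlapped in 1 library each, and the log2 difference was 1.71 (SE 0.506, adjusted p = 0.0938, edgeR). It was 0.93 (adjusted p = 0.843) without the RN7SK-high libraries, which are the 3 low ones of blood-activating. Yin-nourishing against blood-activating gave 1.53 (SE 0.504, adjusted p = 0.144, edgeR). Leaving out blood-activating replicate 04, edgeR called 4 of 35 members for spleen-strengthening against blood-activating, namely SCARNA10, SCARNA2, SNORA22C and SNORD39, and 7.81% of all rows. SCARNA2 passed the filter on low counts there only through the few libraries in which it has counts, so its call is no support. Leaving out heat-clearing replicate 03, it called SNORA22C in that pair (background 1.21%) and over the 4 treatments (1.47%).

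The other members named for a pair had smaller or more scattered values. SNORA17B gave -1.94 (SE 0.716, adjusted p = 0.327, edgeR) for heat-clearing against spleen-strengthening and 1.98 (SE 0.717, adjusted p = 0.126) for spleen-strengthening against blood-activating, with spleen-strengthening libraries from 0.322 to 3.29 CPM. A further row named SNORA17B, with 323 counts beside the member's 1907, was left out. SNORD15B gave -1.50 (SE 0.493, adjusted p = 0.456, edgeR) and SNORA71B 1.43 (SE 0.557, adjusted p = 0.459) for heat-clearing against yin-nourishing. For heat-clearing against blood-activating the 3 members with the smallest p were SNORA73B (0.56), SNORD39 (0.73) and SNORA22C (0.67), and for spleen-strengthening against yin-nourishing SNORD15B (-0.71), SNORA71B (0.80) and SNORA14B (-0.46), with an adjusted p of 0.9999 in the first pair and 1 in the second (edgeR). Comparisons that share a treatment share its 5 libraries. The median log2 difference of the tested members and of all tested rows was 0.26 and -0.09 for yin-nourishing against blood-activating, 0.11 and -0.04 for spleen-strengthening against blood-activating and 0.11 and -0.01 for heat-clearing against blood-activating. It was -0.09 and 0.02 for heat-clearing against spleen-strengthening, -0.09 and 0.05 for heat-clearing against yin-nourishing and -0.02 and 0.00 for spleen-strengthening against yin-nourishing.

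The split of libraries by RN7SK was described and not tested, since it came from a measured gene. For each member the median log2(CPM + 0.5) of the RN7SK-high libraries was set against that of the other libraries of the same treatment, 2 against 3 in heat-clearing and 3 against 2 in blood-activating. In both treatments 10 of 34 tested members lay wholly higher in the RN7SK-high libraries, where 13.9% of all tested rows did, and 6 lay wholly lower, where 8.25% did. The higher ones were 5 scaRNAs (SCARNA5, SCARNA6, SCARNA9, SCARNA10 and SCARNA21), 3 H/ACA snoRNAs (SNORA23, SNORA57 and SNORA71B) and the C/D RNAs SNORD17 and SNORD3C. The lower ones were SNORD3A, SNORD3D, SNORD39, SCARNA4, SCARNA7 and SNORA11. Membership rested on counts summed over all libraries, so high counts in RN7SK-high libraries helped a row to become a member. Without those libraries SNORA57 and SNORA71B would have stayed under the count threshold. Their place among the 10 thus follows in part from how members were chosen, and 10 of 34 is not a like-for-like match to the 13.9%. The median difference of the 11 SCARNA members was 0.91 in heat-clearing and 0.94 in blood-activating, that of the 8 SNORD members -0.60 and -1.03, and that of the 16 SNORA members 0.63 and 0.09, against 0.10 and 0.00 over all tested rows. Of the 8 SNORD members 5 are near-identical U3 copies that share reads, so the SNORD median leaned on U3. For the same reason SNORD3A and SNORD3D are not separate observations among the lower ones. SNORD17 differed by 1.93 and 0.98. Class medians leaned on which rows counted as members: with a threshold of 500 counts the SCARNA medians were 0.14 and -0.01.

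**Figure D2:**
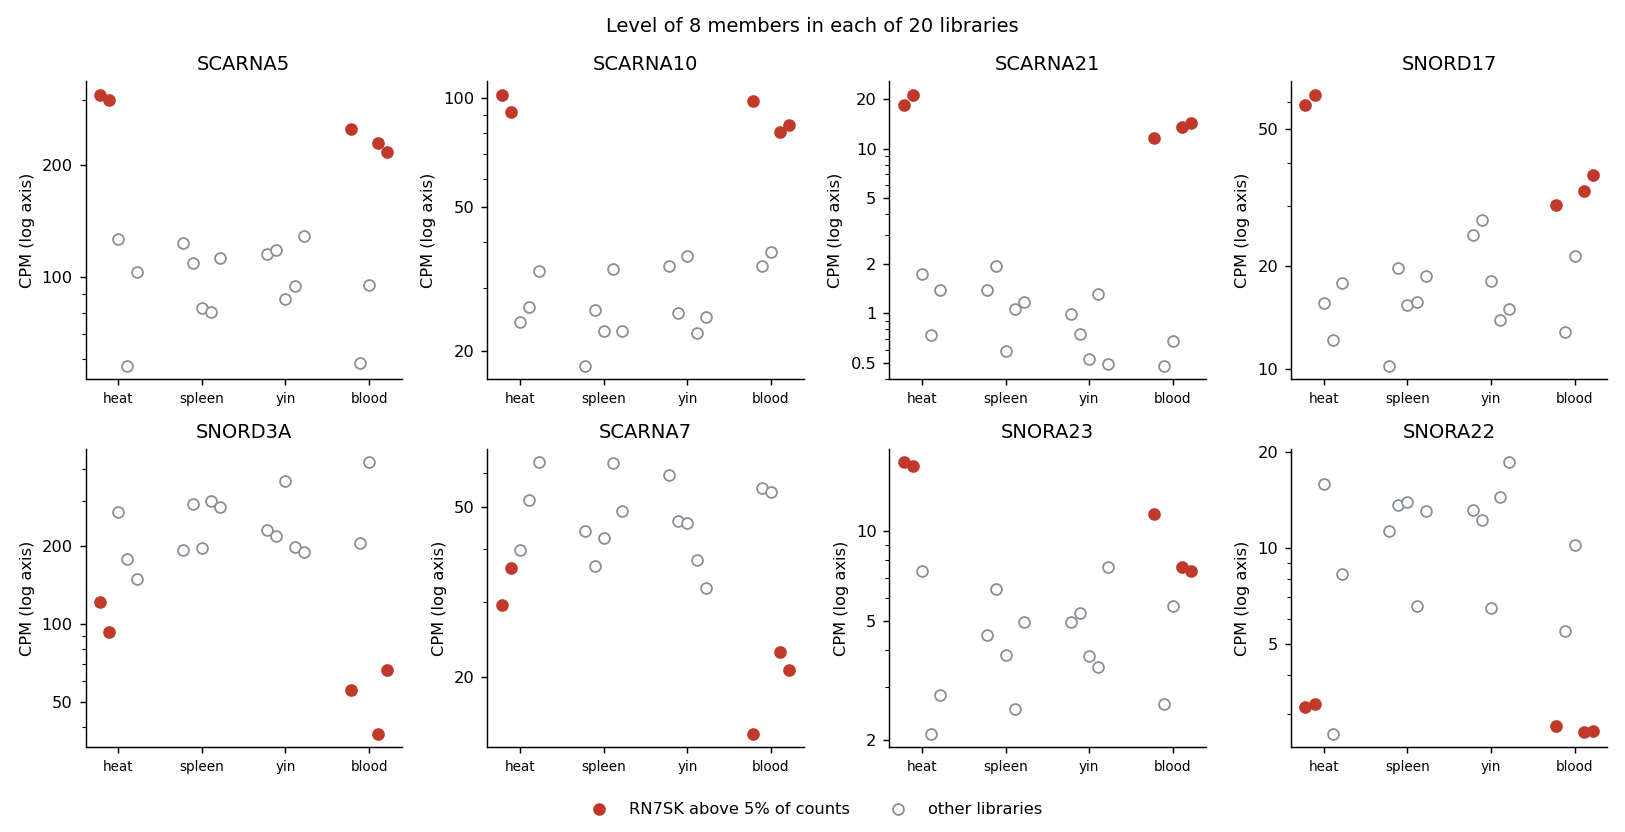
Level of 8 members in each library, in CPM on a log axis, by treatment (heat, spleen, yin and blood stand for the 4 treatments). Filled points are the 5 RN7SK-high libraries and open points the other 15. SCARNA5, SCARNA10, SCARNA21 and SNORD17 are highest in the filled points, SNORD3A is lowest in them, and SCARNA7, SNORA23 and SNORA22 overlap across treatments.

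SCARNA21 showed the widest gap of the tested members. It was at 18.6 and 21.4 CPM in heat-clearing and 11.6, 13.5 and 14.4 CPM in blood-activating RN7SK-high libraries, while the other 15 libraries had a lowest value of 0.480, a median of 0.994 and a highest of 1.93 CPM. The log2 difference was 3.44 in heat-clearing and 3.71 in blood-activating, and no library of one kind reached the other kind. SCARNA5 was at 310 and 299 CPM in heat-clearing and 250, 229 and 218 CPM in blood-activating, against 57.6, 103 and 129 CPM (lowest, median, highest) in the others. SCARNA10 differed by 1.85 and 1.22 on the log2 scale, SCARNA5 by 1.55 and 1.61, and SCARNA6, from the same gene as SCARNA5, by 1.02 and 1.02. All of these, with SCARNA9 (12.2 to 22.4 against 5.47 to 11.6 CPM), were separated across all 20 libraries as well.

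Not all scaRNAs were higher. SCARNA7, a C/D scaRNA, was at 29.5 and 36.1 CPM in the RN7SK-high and 39.7 to 63.7 CPM in the other heat-clearing libraries, and at 14.7, 22.9 and 20.7 against 54.2 to 55.6 CPM in blood-activating. Its log2 differences were -0.67 and -1.39. SCARNA4, a guide for U2, was at 0.0190 to 0.167 against 0.422 to 0.996 CPM in heat-clearing and at 0.149 to 0.164 against 0.362 to 0.761 CPM in blood-activating. A further row named SCARNA4, with 117 counts beside the member's 1062, was left out. SCARNA13 overlapped in both treatments, with differences of 0.15 and -0.24, and ranged from 23.6 to 39.6 CPM over all libraries. SCARNA12, another guide for U5, differed by 0.10 in heat-clearing and -1.04 in blood-activating, and SCARNA16 by -0.35 and -1.13.

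Among the C/D snoRNAs, U3 and SNORD17 differed in opposite directions. SNORD17, which guides methylation of the large-subunit ribosomal RNA, was at 58.8 and 63.2 CPM in heat-clearing and 30.02, 33.2 and 36.9 CPM in blood-activating RN7SK-high libraries, against 10.2, 15.7 and 27.3 CPM (lowest, median, highest) in the other 15. SNORD3A was at 122 and 93.4 CPM and at 55.7, 37.5 and 66.3 CPM in the same libraries, against 149, 220 and 423 CPM in the others. The log2 differences of SNORD17 were 1.93 and 0.98 and those of SNORD3A -0.74 and -2.40, and for both no library of one kind reached the other kind. Summed over the 5 U3 member rows, U3 was at 41.6 to 133 CPM in RN7SK-high libraries and 157 to 447 CPM in the others. The sum does not depend on how reads were divided among those rows. It does depend on how multiply mapped reads were counted, which is not stated, and it leaves out a further SNORD3D row of 144 counts. SNORD3C was the one U3 gene that was higher in both treatments (1.26 to 2.30 against 0.493 to 1.23 CPM over all libraries). SNORD39, also lower in both treatments, was at 0.248 to 0.455 against 0.814 to 2.59 CPM, and 3 further rows of the table share its symbol.

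The H/ACA snoRNAs were mixed. SNORA23 was at 17.0 and 16.6 CPM in the heat-clearing and 11.4, 7.60 and 7.36 CPM in the blood-activating RN7SK-high libraries, against 2.10, 4.49 and 7.58 CPM (lowest, median, highest) in the others, with log2 differences of 2.38 and 0.89. SNORA57 differed by 1.89 and 0.72 and SNORA71B by 0.92 and 0.58, and SNORA11 by -0.17 and -1.03. SNORA22 was at 2.63 to 3.22 CPM in the 5 RN7SK-high libraries and 2.61 to 18.6 CPM in the others, where heat-clearing replicate 07 was lowest at 2.61 CPM and the next lowest library stood at 5.47 CPM. SNORA73B, which acts in precursor cutting, was at 40.6 to 44.6 against 8.68 to 41.2 CPM in heat-clearing and 18.0 to 23.9 against 14.2 to 27.9 CPM in blood-activating, so both overlapped.

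**Figure D3:**
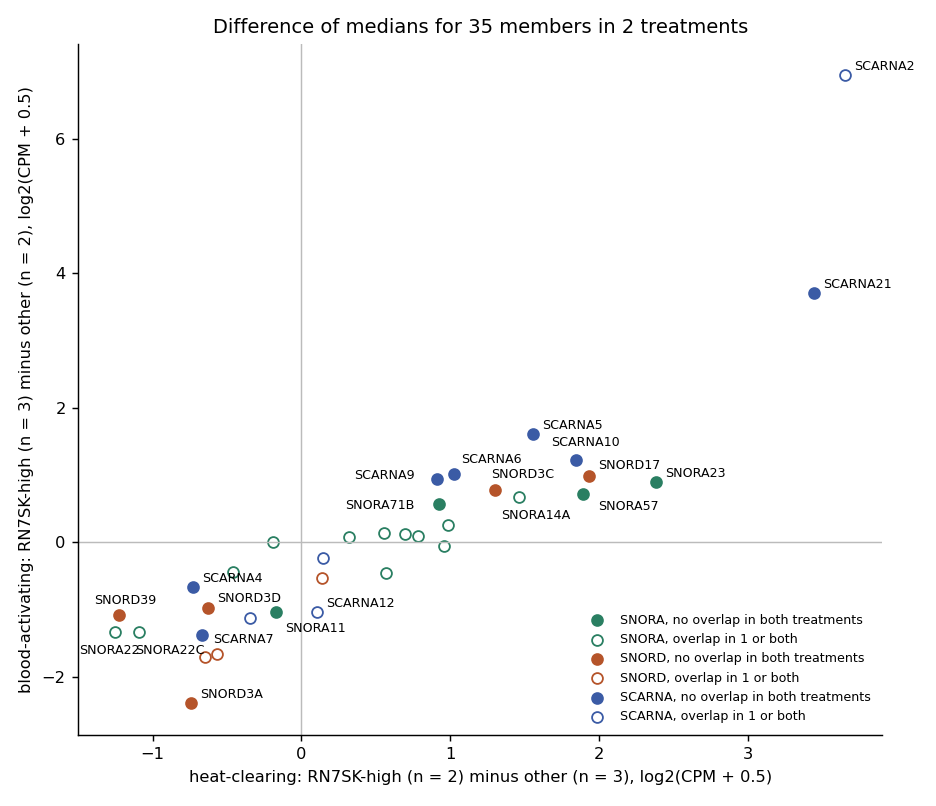
RN7SK-high minus other libraries, as differences of medians of log2(CPM + 0.5), in heat-clearing (horizontal axis) and blood-activating (vertical axis) for the 35 members. Filled points did not overlap in either treatment and differed in the same direction in both. SNORA14B, without overlap in either treatment but in opposite directions, is drawn open. SCARNA21 lies at 3.44 and 3.71, SNORD3A at -0.74 and -2.40, and SCARNA2, which overlapped in heat-clearing, at the upper right.

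Across the 35 members the differences in heat-clearing and in blood-activating had a Pearson correlation of 0.89 and a Spearman correlation of 0.92, given as a description, since all members share the same libraries. Both values include SCARNA2, the most extreme point (3.65 and 6.95), whose counts stood under its own name in only some libraries. They also take near-identical copies as separate points. Against GC content of the mature RNA, the mean difference had a Pearson correlation of 0.49 and a Spearman correlation of 0.19 (n = 34), and without SCARNA2 0.32 and 0.11. Against mature length the values were 0.38 and 0.27, and without SCARNA2 0.10 and 0.20. The 10 higher members had a median GC content of 49.5% and the 5 lower ones with a sequence 49.8%.

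SCARNA2, a C/D scaRNA that guides U2, was a case of its own. It had 8068 counts in heat-clearing replicate 01, 2797 in heat-clearing replicate 09, 5755 in blood-activating replicate 01 and 6732 in blood-activating replicate 09, and at most 4 counts in each of the other 16 libraries. In 7 of these it had none, and a count of 0 allows up to 3 counts (counting error only). The gene that contains it, the long noncoding RNA AL356488.2, had 7, 146, 17 and 27 counts in the 4 libraries with SCARNA2 counts and 1075 to 6258 in the rest. Summed, the pair stood at 57.2 to 76.6 CPM in the 5 RN7SK-high libraries and at 11.9 to 23.9 CPM in the other 15, with no overlap. Nearly all counts of the pair thus stood under 1 of the 2 names in each library, heat-clearing replicate 09 having 2797 and 146. How the counting assigned reads between the names is not stated in the labels and was not tested, and levels of SCARNA2 alone are not compared between treatments here, although its counts are part of the SCARNA class sums. Its location is chr1:109100193-109100612 on the plus strand.

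**Figure D4:**
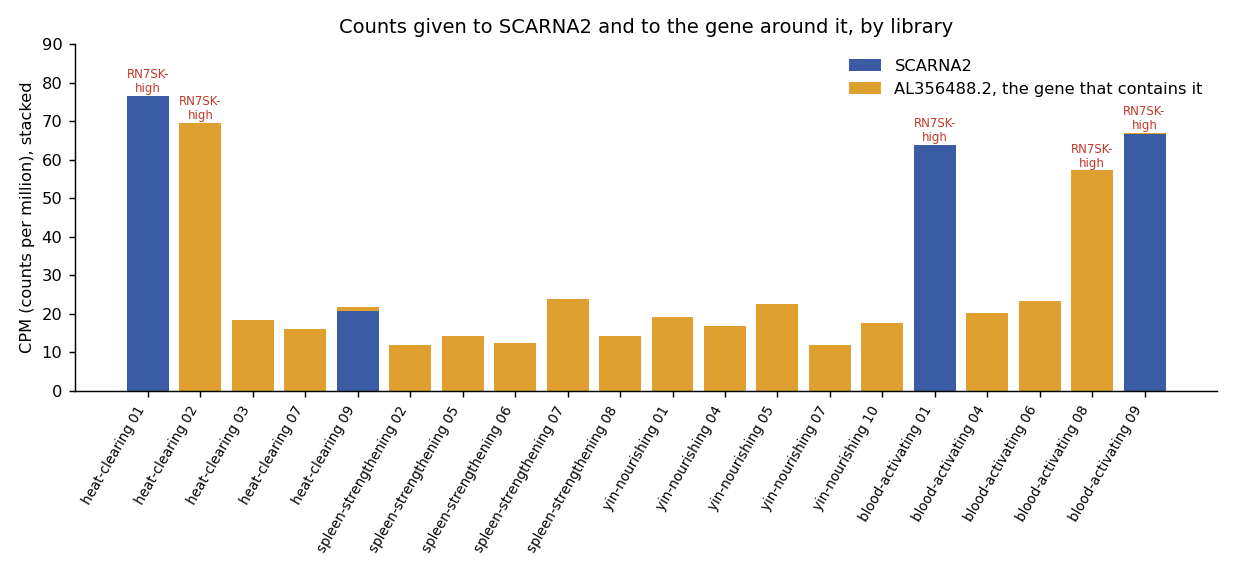
Counts of SCARNA2 and of AL356488.2, the gene around it, stacked in CPM (vertical axis) for each of the 20 libraries (horizontal axis), with RN7SK-high libraries marked. In nearly every bar 1 colour fills the bar, and the marked bars stand at 57.2 to 76.6 CPM against 11.9 to 23.9 CPM for the unmarked.

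The gene that contains a member had the smaller difference between these libraries in 22 of 30 pairs and the larger in 8. The 30 members lay in 29 distinct tested genes. Of them, 12 had a mean difference over both treatments of 1 or more in size on the log2 scale, and in 1 of those 12 the containing gene also did, AL356488.2. The sign was the same in 16 of 30. Among the 8, PHB2 had a mean difference of 0.89 where SCARNA12 within it had -0.47, SNHG7 0.77 where SNORA17B had -0.45, and SNHG17 0.84 where SNORA71B had 0.75. Leaving out SCARNA2, the median size of the difference was 0.30 for the containing genes and 0.74 for the members (n = 29). CHD3, around SCARNA21, was at 68.7 to 73.2 against 57.9 to 85.5 CPM in heat-clearing and 55.9 to 63.2 against 74.3 to 76.1 CPM in blood-activating. NCAPD2, around SCARNA10, and SNX5, around SNORD17, had lower values in RN7SK-high libraries in both treatments, with mean differences of -0.55 and -0.27. ATG16L1, around SCARNA5 and SCARNA6, was at 55.9 to 66.7 against 43.2 to 53.6 CPM in heat-clearing and overlapped in blood-activating, with a mean difference of 0.33. Over the 29 members other than SCARNA2 the differences of member and containing gene had a Pearson correlation of -0.09 and a Spearman correlation of -0.07.

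**Figure D5:**
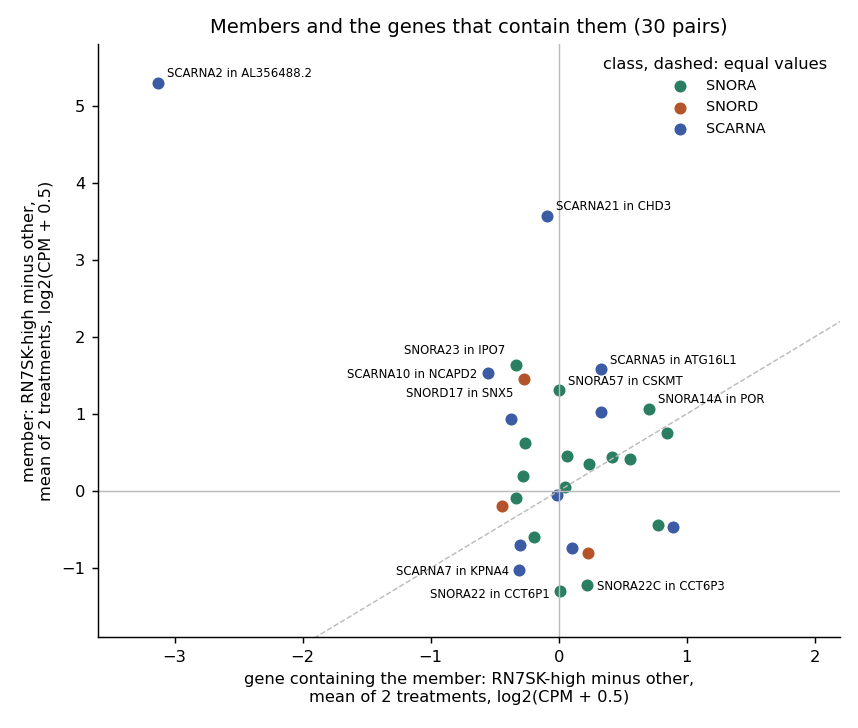
Mean over heat-clearing and blood-activating of the RN7SK-high minus other difference in log2(CPM + 0.5), for 30 members (vertical axis) and the genes that contain them (horizontal axis). The dashed line marks equal values. The containing genes other than AL356488.2 lie within 1 of 0, while SCARNA21 in CHD3 lies at 3.57 on the vertical axis.

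The protein partners of these RNAs gave 0 calls in any of the 7 comparisons by edgeR. An unadjusted p under 0.05 was found in 14 of 28 tests of the H/ACA proteins and 6 of 28 of the C/D proteins. It was found in 11 of 91 tests of the assembly and processing factors and in 11.8% of the tests of all rows. Each 28 is 4 genes in 7 comparisons that share libraries, so these are not separate observations and show no enrichment. The counts that follow are of genes separated in both treatments, which 13.9% of all tested rows were upward and 8.25% downward. Of the 4 proteins of the H/ACA particle, NHP2 was higher in RN7SK-high libraries in both treatments (15.6 to 18.8 against 3.91 to 8.36 CPM in heat-clearing, 15.9 to 24.2 against 4.88 to 8.31 CPM in blood-activating), NOP10 was also higher, and GAR1 was lower (6.18 to 8.34 against 13.6 to 20.7 CPM, and 8.07 to 9.48 against 11.8 to 15.6 CPM). DKC1, which encodes dyskerin, was higher in heat-clearing and overlapped in blood-activating. Of the 4 proteins of the C/D particle, FBL (fibrillarin), NOP58 and SNU13 were higher in both treatments, with FBL at 14.2 to 21.4 against 5.69 to 9.12 CPM and at 11.9 to 14.1 against 7.99 to 10.1 CPM. The other one, NOP56, overlapped in heat-clearing (-0.15) and was lower in blood-activating, at 34.2 to 37.1 against 52.9 to 56.8 CPM. Among 13 assembly and processing factors 2 were higher (NUFIP1 and RUVBL2) and 4 lower (ZNHIT6, RUVBL1, PHAX and PARN). Among 6 genes of Cajal bodies and the RNPs that mature there 1 was higher in both treatments and 0 lower. The other 5 overlapped in 1 treatment and were wholly higher in the other. Of these, coilin (COIL) was wholly higher in heat-clearing and WRAP53 in blood-activating. Of 25 listed spliced host genes 6 were higher and 3 lower. Of 19 other structured RNAs 16 were tested, and of these 6 were higher and 3 lower in both treatments, but RN7SK is 1 of the 6 and was higher by the definition of the split. The U2 gene RNU2-2P was at 318 to 464 against 30.4 to 59.2 CPM and 157 to 296 against 35.6 to 67.6 CPM, whereas the U5 gene RNU5A-1 was lower, at 0.711 to 0.958 against 1.03 to 3.43 CPM and 0.384 to 0.487 against 1.06 to 2.004 CPM. The ductal markers were higher in the same libraries, at a summed 2703 to 3292 against 1895 to 2593 CPM, with 4 of 7 genes wholly higher in both treatments (KRT7, KRT8, CDH1 and MUC1). EPCAM differed the other way, at 80.1 to 95.8 against 101 to 122 CPM in heat-clearing, and overlapped in blood-activating (-0.22). The acinar genes summed to 3.13 to 54.9 CPM in the RN7SK-high and 0.946 to 752 CPM in the other libraries, none of them at 0 throughout. The part of any of these in the members' differences was not tested.

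A letter at the end of the sample titles, b for 13 libraries and C for 7, is not explained in the labels. In blood-activating all 3 RN7SK-high libraries carry b and both others carry C, so the letter and RN7SK cannot be told apart there. In heat-clearing each letter has an RN7SK-high library. The members given next were already without overlap in heat-clearing, so separation within each letter follows from that and is no further support. SCARNA21 was at 18.6 against 1.75 CPM within letter b and at 21.4 against 0.737 and 1.39 CPM within letter C. SCARNA5 was at 310 against 127 CPM and at 299 against 57.6 and 103 CPM, SNORD17 at 58.8 against 15.6 CPM and at 63.2 against 12.2 and 17.9 CPM, and SNORD3A at 122 against 272 CPM and at 93.4 against 149 and 179 CPM. Among the 13 b libraries over all treatments, 10 of the 16 members separated in both treatments kept their direction with no overlap (62.5%), near the 68.3% of all rows so separated, the exceptions being SNORA11, SNORA23, SNORA57, SNORA71B, SNORD3D and SCARNA4.

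Tested by edgeR with treatment in the fit, a comparison chosen after values were seen, the letter gave 0 of 34 members called over all 20 libraries (background 0.00403%), with 7 of 34 members and 1608 of 24790 rows at an unadjusted p under 0.05. Over the 15 libraries that were not RN7SK-high it gave 4 of 34 members (background 2.5%), all H/ACA snoRNAs and all higher in b. Few libraries inform the letter within a treatment there. All blood-activating libraries of that set carry C, and the only C libraries of spleen-strengthening and yin-nourishing are replicates 07 and 05. The ranges that follow pool the treatments. SNORA22 was at 11.3, 13.6 and 18.6 CPM (lowest, median, highest) in the 9 b libraries and at 2.61, 6.53 and 10.2 CPM in the 6 C libraries, with no overlap (log2 difference 1.26, SE 0.267, adjusted p = 0.0195, edgeR). Its copy SNORA22C gave 1.17 (SE 0.280, adjusted p = 0.0286, edgeR). SNORA73B was at 32.8, 39.9 and 55.1 against 8.68, 20.3 and 27.9 CPM, also with no overlap (1.22, SE 0.273, adjusted p = 0.0382, edgeR), and SNORA53 gave 0.70 (SE 0.183, adjusted p = 0.0444, edgeR). None of the 4 was called with all 20 libraries and a term for the RN7SK-high ones: SNORA22 then gave 0.82 (adjusted p = 0.120, edgeR), SNORA22C an adjusted p of 0.336, SNORA73B 0.375 and SNORA53 0.443. DESeq2 over all 20 libraries called 2 other members (background 0.476%), SCARNA12 (-0.72) and SCARNA7 (-0.76), both lower in b. What the letter stands for was not tested.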

How the data were processed

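RNA-seq was read from 1 table of whole-number counts per gene that the authors deposited, 1 column per library. Per the labels' protocols, TRIzol total RNA was depleted of ribosomal RNA and made into directional libraries. Per the submitters' processing notes, HISAT2, StringTie and hg38 were used. Neither versions nor the handling of mouse reads, multiply mapped reads and overlapping genes is stated in the labels, and such handling bears on near-identical copies and on members inside other genes. The table held 0 columns of other samples.

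Levels are CPM of the column total (81.7 to 135 M counts). Tests used edgeR 4.0.16 (TMM, filterByExpr with a minimum count of 10, robust quasi-likelihood F-tests, all 20 libraries in 1 fit, R 4.3.3) with Benjamini-Hochberg adjustment over 24790 rows at 0.05. Each "X against Y" is X minus Y. DESeq2 1.42.0, limma 3.58.1 voom, other filters and scalings, a term for or removal of RN7SK-high libraries, a replicate block and leaving out each library were alternatives. The RN7SK split (over 5% of counts) was described with a pseudocount of 0.5 CPM and not tested. On simulated data for heat-clearing against spleen-strengthening (23597 genes), 86% of 100 genes changed 2-fold and 100% of 100 changed 4-fold were recovered, with 3.63% false among those called. The simulation gave every gene the same spread, changed no low-count genes and held no RN7SK split. It checks the code only, and the power to find such changes among the members was not measured.

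Named members were the 3 with the smallest p per comparison, the 5 highest per class by CPM per kb, up to 4 per class and direction separated by RN7SK in both treatments, listed U3 and precursor-cutting RNAs, and 3 rows on each side of the threshold. Other names were chosen after their values were seen. The members and lists were chosen with earlier results of these data known. Sequences and positions are from GENCODE 29 (GRCh38). Intervals and limits cover counting error only.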

Additional observations from a re-analysis of the deposited data

Results flagged for a closer look

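Groups of 5 libraries were searched for a value whose gap to its nearest neighbour exceeded 0.71 of the group's range, for the class sums and each member. Of 152 groups, 6 had one, where chance gives about 1 in 20 (7.6). The summed SNORD level was 309 CPM in heat-clearing replicate 03 against 165 to 205 CPM in the other 4. SCARNA2 was at 76.5 CPM in heat-clearing replicate 01 against 0 to 20.7 CPM. SNORA33 was at 1.52 CPM in heat-clearing replicate 03 against 0.278 to 0.482 CPM. SNORD3A was at 359 CPM in yin-nourishing replicate 05 against 189 to 231 CPM. SNORD3C was at 1.20 CPM in spleen-strengthening replicate 05 against 0.628 to 0.735 CPM, and SNORD15B at 0.987 CPM in blood-activating replicate 04 against 0.327 to 0.504 CPM.

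SNORA14B was wholly higher in the RN7SK-high libraries in heat-clearing (0.57 on the log2 scale) and wholly lower in blood-activating (-0.46). The difference between the treatments was not tested.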

How the results depend on the processing

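The number of members called depended on the tool. In place of 0, DESeq2 called 4 over the 4 treatments, 5 for spleen-strengthening against blood-activating and 5 for yin-nourishing against blood-activating, and limma 8, 9 and 12. Leaving out 1 library gave 0 to 1 over the 4 treatments and 0 to 4 for spleen-strengthening against blood-activating. For the title letter the count was 4 without the RN7SK-high libraries, 2 by DESeq2 (SCARNA7 and SCARNA12, both higher in C), and 0 to 2 leaving out 1 library. The other counts of members called stayed at 0. The replicate block gave 0 members called in all 7 comparisons; the labels do not pair the numbers, and 1 of 12 same-number pairs correlated above 0.1 (-0.05 to 0.17).

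SCARNA21 reversed for heat-clearing against spleen-strengthening with a term for RN7SK-high libraries (-0.075), and for yin-nourishing against blood-activating without those libraries (0.53) and with the term (0.32). SNORA22C for heat-clearing against blood-activating ranged from -0.029 (without heat-clearing replicate 03) to 1.08. The cause was not tested.

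Of the class medians by RN7SK, SNORA in blood-activating was -0.010 at a threshold of 500 counts and -0.34 to 0.41 leaving out 1 library. SNORD in blood-activating was -1.38 at a threshold of 2000, -1.60 with a pseudocount of 0.1 and -0.46 with 2. SCARNA was 0.14 in heat-clearing and -0.005547 in blood-activating at 500, and 0.33 to 1.27 and 0.59 to 0.98 leaving out 1 library. Class sums by treatment moved by less than 1 SD in all 36 other settings and 60 with a library left out.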
